A study of Mus musculus with 12 samples.

Results

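The 9 genes described here encode the cyclins D1, D2, D3, E1, E2, A2, B1, B2 and F, and they were chosen by name from the 35709 genes of an RNA-seq table of isolated mouse hepatocytes. All 9 symbols (Ccnd1, Ccnd2, Ccnd3, Ccne1, Ccne2, Ccna2, Ccnb1, Ccnb2 and Ccnf) had a row, and all 9 were among the 20244 genes with enough signal to be tested. The hepatocytes came from male C57BL/6J mice aged 8 to 10 weeks and were purified by Liberase perfusion, differential centrifugation and a Percoll gradient. The control genotype, Alb-Cre, carries Cre recombinase driven by the albumin promoter, and the Alb-R3 genotype is labelled as lacking the receptor gene Fgfr3 specifically in hepatocytes. Mice of each genotype were injected intraperitoneally with olive oil, or with the liver toxicant carbon tetrachloride (CCl4), diluted in that oil to give 0.4 mg per g of body weight, and were studied at 48 h. Each of the 4 combinations of genotype (Alb-Cre or Alb-R3) and treatment (oil or CCl4) had 3 libraries. The labels do not say whether the 3 samples of a group came from separate animals, so the p-values below reflect only how far these samples spread, and that spread may be technical.

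Cyclins are the regulatory subunits that switch on cyclin-dependent kinases (CDKs), and most are made and destroyed once per cell cycle. D-type cyclins activate CDK4 and CDK6 when a resting cell receives growth signals, E-type cyclins activate CDK2 at the start of DNA synthesis, cyclin A2 works through S phase and G2, and B-type cyclins activate CDK1 to drive mitosis. Cyclin F binds no CDK and is instead the substrate-binding subunit of an SCF ubiquitin ligase. Adult hepatocytes are normally quiescent and re-enter the cycle after tissue loss or toxic injury, a response in which cyclin D1 is a well-known early step.

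Fgfr3 itself, the gene labelled as deleted, had normalized counts of 734.9, 887.6 and 988.1 in Alb-Cre hepatocytes after oil, where the Alb-R3 libraries had 523.1, 650.5 and 1109. After CCl4 it had 950.9, 705.7 and 753.0 in Alb-Cre against 477.7, 372.1 and 382.3 in Alb-R3, and neither genotype difference passed the test (limma adjusted p = 1 after oil and 0.252 after CCl4). The highest of the 12 values belonged to the library labelled Alb-R3 oil replicate 3, and the sources used here do not give the deleted exons. Depth was 28015100 to 39607200 estimated reads per library. Mitochondrially encoded genes took 32.3% of the normalized counts in Alb-R3 CCl4 replicate 1 and 6.22% to 12.8% in the other 11 libraries. All 12 hepatocyte markers were measured, and their sum was 5.30% to 11.7% of a library's normalized counts, the lowest again in Alb-R3 CCl4 replicate 1.

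Promoter sequence from RefSeq (build GRCm38.p6) was matched to 5 of the 9 genes, namely Ccnb1, Ccnb2, Ccnf, Ccne1 and Ccnd3. Ccnd1, Ccnd2, Ccne2 and Ccna2 were not matched. Ccnd3, which had the smallest log2 changes with CCl4 of the 5 (0.21 in Alb-Cre and 0.18 in Alb-R3), is not printed. The 4 stretches below are shown because their genes differed widely in their response to CCl4: among these 4, both B-type cyclins had the largest log2 changes in each genotype, cyclin E1 a smaller one and cyclin F the smallest. Each lies on the minus strand directly upstream of the gene's most upstream annotated start, and is printed 5′ to 3′ with the letters CCAAT and TTTGAA in capitals. They cover chr13:100786571-100786736 (Ccnb1), chr9:70421555-70421804 (Ccnb2), chr17:24251485-24251659 (Ccnf) and chr7:38107535-38107740 (Ccne1).
Ccnb1: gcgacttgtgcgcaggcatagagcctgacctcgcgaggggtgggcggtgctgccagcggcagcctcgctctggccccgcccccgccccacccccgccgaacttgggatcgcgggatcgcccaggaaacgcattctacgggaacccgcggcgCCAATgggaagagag
Ccnb2: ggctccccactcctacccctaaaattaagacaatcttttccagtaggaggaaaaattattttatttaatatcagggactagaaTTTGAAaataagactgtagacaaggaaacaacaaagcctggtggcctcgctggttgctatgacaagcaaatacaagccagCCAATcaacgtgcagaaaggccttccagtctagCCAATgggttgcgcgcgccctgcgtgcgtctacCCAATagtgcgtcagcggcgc
Ccnf: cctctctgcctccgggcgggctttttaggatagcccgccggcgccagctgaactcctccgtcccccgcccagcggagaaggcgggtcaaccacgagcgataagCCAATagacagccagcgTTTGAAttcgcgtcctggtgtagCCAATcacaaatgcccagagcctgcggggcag
Ccne1: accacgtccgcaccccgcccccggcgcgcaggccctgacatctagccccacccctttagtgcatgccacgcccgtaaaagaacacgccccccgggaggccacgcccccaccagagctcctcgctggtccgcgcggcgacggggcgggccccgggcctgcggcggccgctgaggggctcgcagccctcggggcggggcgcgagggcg

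Motifs were searched on both strands in the full windows of 250 bases before to 50 bases after the RefSeq start. The CCAAT box (CCAAT), the core of the binding sequence of the factor NF-Y, stood in 37.4% of 32851 windows, and 11.7% held it at least 2 times. The Ccnb2 window held it 3 times, at 87, 54 and 21 bases before the start, so that successive copies were 33 and 33 bases apart. The Ccnb1 window held it at 99 and 67 bases before the start, 32 bases apart, and the Ccnf window at 147 and 107 bases, 40 bases apart. The Ccne1 window held none, and 1 of the 2 Ccnd3 windows held 1 copy. The cell cycle homology element (CHR, TTTGAA), a sequence known from genes of G2 and mitosis, stood in 17.9% of windows and at least 2 times in 2.31%. It occurred 2 times in the Ccnb2 window (167 bases before and 5 after the start) and 2 times in the Ccnf window (130 and 14 bases before). The variant TTTAAA, searched after the sequences had been seen and present in 13.2% of windows, stood 42 bases before the start of Ccnb1 and 15 bases before that of Ccne1. The E2F letters TTTGGCGC, TTTCCCGC, TTTCGCGC and TTTGCCGC stood in 2.26% of windows and in none of the cyclin windows. Matches nearer the start than the printed stretches are given by position only. The motifs do not overlap in these windows, and a match describes the letters only.

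From oil to CCl4, 6 of the 9 cyclins rose in Alb-Cre hepatocytes and 8 of 9 rose in Alb-R3 hepatocytes, and none fell in either. These calls use limma on log2(normalized count + 1), with Benjamini-Hochberg adjustment over all 20244 genes and a threshold of 0.05. In Alb-Cre 4.45% of all tested genes passed and 3.46% passed as higher. In Alb-R3 17.8% passed and 10.9% passed as higher. The median log2 fold change of the 9 cyclins was 3.26 in Alb-Cre and 3.34 in Alb-R3, while the median over all tested genes was 0.02 and 0.0016. In bulk RNA of this kind a change in the number of cells expressing a gene and a change in the RNA per cell cannot be told apart.

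**Figure D1:**
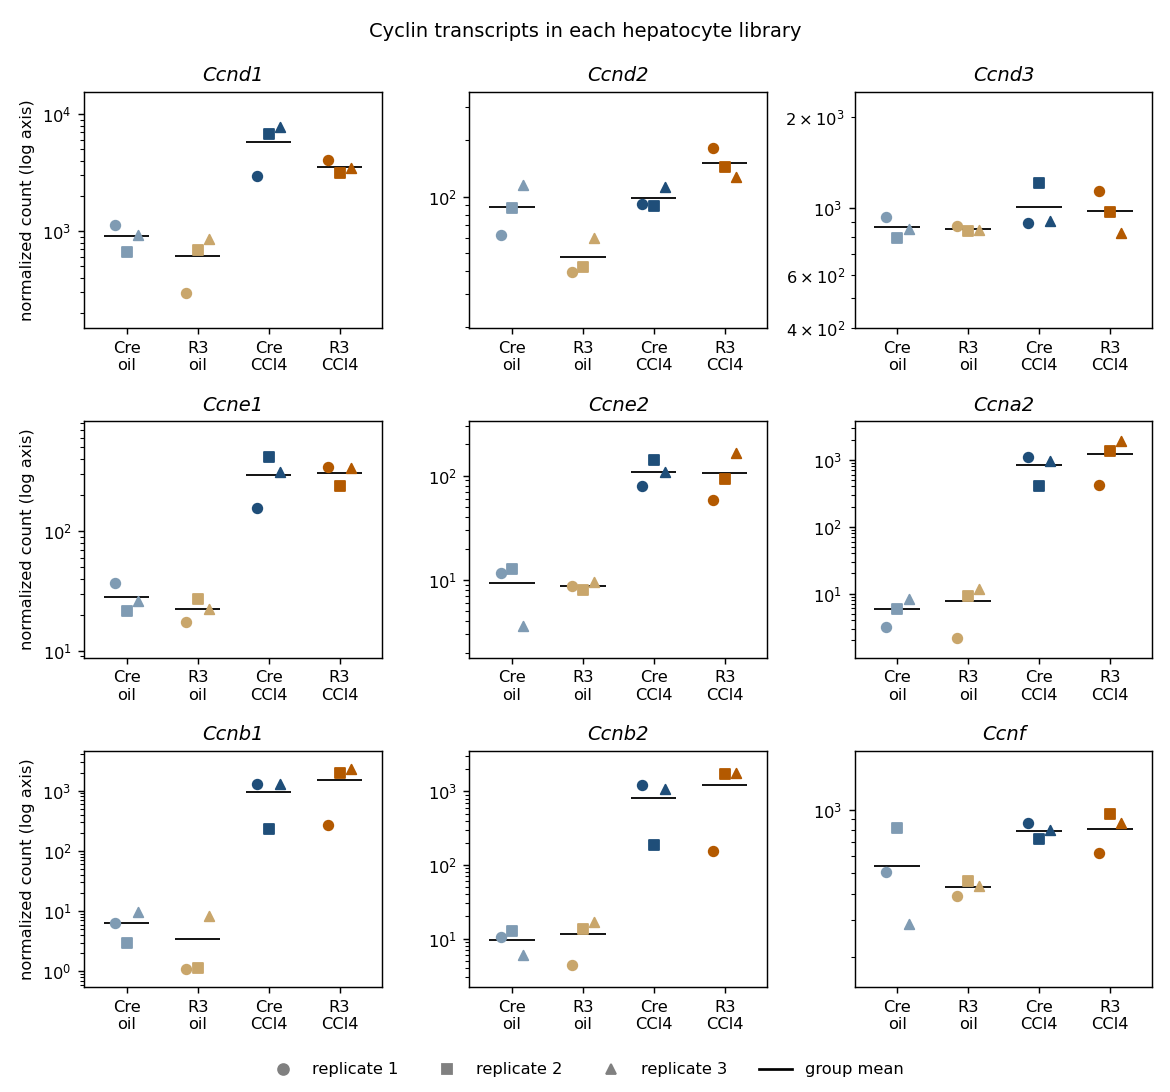
Normalized counts of the 9 cyclins (log axes, a separate range for each gene) in each of the 12 libraries, with replicate numbers as symbols and group means as lines. Cyclins D1, E1, E2, A2, B1 and B2 lie higher in each of the 6 CCl4 libraries than in each of the 6 oil libraries, Ccnd3 stays within 795.7 to 1212 throughout, and Ccnd2 and Ccnf overlap between oil and CCl4 in Alb-Cre.

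Among the D-type cyclins, which link growth signals to the cell cycle, cyclin D1 rose with CCl4 in both genotypes, cyclin D2 passed the test in Alb-R3 and cyclin D3 passed in neither. Ccnd1 (chromosome 7, 144929931 to 144939925, minus strand; positions are GENCODE M21 on GRCm38) had normalized counts of 1120, 662.1 and 923.7 in Alb-Cre oil and 2993, 6757 and 7758 in Alb-Cre CCl4. In Alb-R3 it had 295.5, 694.7 and 856.2 after oil and 4025, 3163 and 3493 after CCl4. Every CCl4 library exceeded every oil library, and the lowest oil value was that of Alb-R3 oil replicate 1. Ccnd1 rose by 2.61 ± 0.39 on the log2 scale in Alb-Cre (SE, n = 3 per group; limma adjusted p = 0.00118) and by 2.66 ± 0.39 in Alb-R3 (limma adjusted p = 0.000572).

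Ccnd3 (chromosome 17, 47505051 to 47599691, plus strand), the D-type cyclin with the highest level per gene length after oil, had 934.5, 795.7 and 853.3 in Alb-Cre oil and 892.9, 1212 and 904.3 in Alb-Cre CCl4. It had 873.1, 835.8 and 846.1 in Alb-R3 oil and 1138, 966.3 and 823.5 in Alb-R3 CCl4. The oil and CCl4 values overlapped in both genotypes. Its log2 differences were 0.21 (95% interval -0.15 to 0.56; limma adjusted p = 0.592) and 0.18 (-0.17 to 0.54; limma adjusted p = 0.488). On the FPKM columns, where the median of all genes also shifted upward by 0.15 in Alb-Cre and 0.17 in Alb-R3, the Alb-R3 difference was 0.45 and passed (limma adjusted p = 0.0304).

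Ccnd2 (chromosome 6, 127125162 to 127152193, minus strand) was the least abundant D-type cyclin. It had 61.94, 86.53 and 115.8 in Alb-Cre oil and 91.39, 89.22 and 113.0 in Alb-Cre CCl4, which overlap. In Alb-R3 it had 39.39, 41.93 and 60.31 after oil and 181.6, 143.6 and 127.4 after CCl4, which do not. The log2 difference was 0.19 ± 0.29 in Alb-Cre (limma adjusted p = 0.816), and Ccnd2 rose by 1.67 ± 0.29 in Alb-R3 (limma adjusted p = 0.00168). The test of the difference between these responses gave 1.48 ± 0.40 (limma adjusted p = 0.379), so the responses were not shown to differ.

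Summed markers of 3 other liver cell types were lowest in Alb-R3 oil, as Ccnd2 was. Within Alb-R3 CCl4 the Kupffer cell sum was highest in replicate 1, as Ccnd2 was, and the endothelial and stellate cell sums were lowest there. The summed normalized count of 12 endothelial markers ran from 4148 to 5663 in Alb-Cre oil, from 2389 to 2660 in Alb-R3 oil, from 4784 to 6781 in Alb-Cre CCl4 and from 5420 to 6795 in Alb-R3 CCl4. For 12 Kupffer cell and macrophage markers it was 1564 to 3114, 1024 to 1455, 1765 to 2297 and 2873 to 16723 in the same order, and for 12 stellate cell and fibroblast markers 2206 to 3007, 1104 to 1388, 2816 to 4170 and 2023 to 4962. As with Ccnd2, all 3 sums put every Alb-R3 oil library below every Alb-Cre oil library. No endothelial or Kupffer cell marker was at 0 in a whole group, and the stellate cell marker Acta2 was listed at 0 in the Alb-Cre oil group. With CCl4 in Alb-R3, 10 of 12 endothelial, 12 of 12 Kupffer cell and 10 of 12 stellate cell markers rose, with median log2 fold changes of 1.31, 2.32 and 2.15. Of 12 hepatocyte markers 4 fell (median -0.65). In Alb-Cre 0, 0 and 4 rose and 0 hepatocyte markers passed (limma, with 0, 1, 6 and 3 at an unadjusted p under 0.05). Among all 20244 tested genes 2198 rose and 1400 fell in Alb-R3, and 700 rose and 200 fell in Alb-Cre. In Alb-R3 CCl4 replicates 1, 2 and 3 Ccnd2 was 181.6, 143.6 and 127.4, and the endothelial sum ran in reverse (5420, 6592 and 6795). The stellate cell sum also ran in reverse (2023, 4178 and 4962), and the Kupffer cell sum was 16723, 2873 and 3837. The part of these cells in the Ccnd2 values was not tested. Without Alb-R3 CCl4 replicate 1, which had the highest Ccnd2 value and the highest Kupffer cell sum, the Ccnd2 response in Alb-R3 was 1.52 (limma adjusted p = 0.0047).

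**Figure D2:**
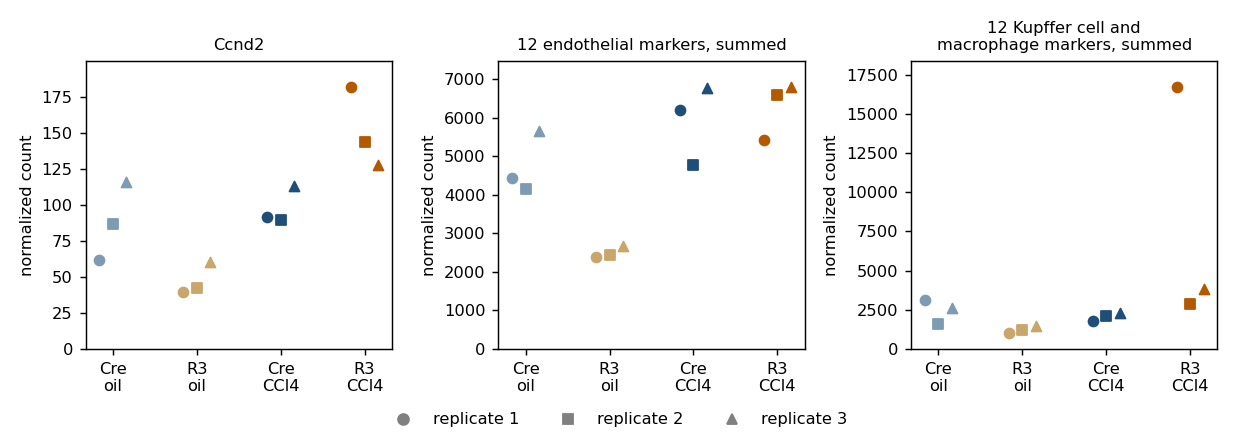
Normalized count of Ccnd2 (left) and summed normalized counts of 12 endothelial (middle) and 12 Kupffer cell and macrophage markers (right) in each library, on linear axes from 0 with replicate numbers as symbols. The Alb-R3 oil libraries are the lowest group in all 3 panels, and Alb-R3 CCl4 replicate 1 stands at 16723 in the right panel.

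Both E-type cyclins, the activators of CDK2 at the entry to S phase, rose in both genotypes. Ccne1 (chromosome 7, 38097984 to 38107534, minus strand) had 36.75, 21.39 and 26.25 in Alb-Cre oil and 154.6, 411.8 and 311.7 in Alb-Cre CCl4. It had 17.51, 27.2 and 22.47 in Alb-R3 oil and 340.4, 235.9 and 335.0 in Alb-R3 CCl4. No oil value reached a CCl4 value, and Alb-Cre CCl4 replicate 1 was the lowest of the 6 CCl4 libraries. Ccne1 rose by 3.26 ± 0.36 in Alb-Cre (limma adjusted p = 8.7e-05) and 3.71 ± 0.36 in Alb-R3 (limma adjusted p = 2.4e-05).

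Ccne2 (chromosome 4, 11191351 to 11204779, plus strand) had 11.55, 12.64 and 3.58 in Alb-Cre oil and 78.75, 140.7 and 108.1 in Alb-Cre CCl4. In Alb-R3 it had 8.754, 7.933 and 9.461 after oil and 58.8, 93.02 and 165.9 after CCl4. The groups again did not overlap, with the lowest CCl4 value in Alb-R3 CCl4 replicate 1. Ccne2 rose by 3.54 ± 0.48 (limma adjusted p = 0.000581) and 3.34 ± 0.48 (limma adjusted p = 0.000516). Per gene length Ccne1 was the more abundant of the pair in each of the 12 libraries, with a Ccne1 to Ccne2 ratio of FPKM between 2.99 and 13.0 after oil and between 3.47 and 10.2 after CCl4.

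The cyclins of S phase, G2 and mitosis had the largest fold changes, rising from normalized counts of at most 16.56 after oil to at least 156.8 after CCl4. Ccna2 (chromosome 3, 36564865 to 36572150, minus strand), which works with CDK2 and CDK1, had 3.15, 5.833 and 8.354 in Alb-Cre oil and 1118, 410.6 and 978.3 in Alb-Cre CCl4. It had 2.189, 9.066 and 11.83 in Alb-R3 oil and 420.9, 1361 and 1883 in Alb-R3 CCl4. The 2 CCl4 libraries with the lowest values were Alb-Cre CCl4 replicate 2 and Alb-R3 CCl4 replicate 1, each still far above all oil libraries. Ccna2 rose by 6.90 ± 0.62 in Alb-Cre (limma adjusted p = 2.4e-05) and 7.11 ± 0.62 in Alb-R3 (limma adjusted p = 1.2e-05).

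Ccnb1 (chromosome 13, 100778650 to 100786570, minus strand), a partner of CDK1 in mitosis, had 6.299, 2.917 and 9.547 in Alb-Cre oil and 1299, 229.6 and 1285 in Alb-Cre CCl4. It had 1.094, 1.133 and 8.278 in Alb-R3 oil and 268.4, 2000 and 2294 in Alb-R3 CCl4. The first 2 of these Alb-R3 oil values are each the value of 1 read in their library, so the base of that fold is at the limit of the depth. Ccnb1 rose by 6.76 ± 0.88 in Alb-Cre (limma adjusted p = 0.000352) and by 8.28 ± 0.88 in Alb-R3 (limma adjusted p = 4.3e-05). The Alb-R3 fold was 7.09 with a pseudocount of 5 and 8.99 without Alb-R3 oil replicate 3.

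Ccnb2 (chromosome 9, 70407692 to 70421547, minus strand), the second B-type partner of CDK1, had 10.5, 12.64 and 5.967 in Alb-Cre oil and 1209, 184.1 and 1076 in Alb-Cre CCl4. It had 4.377, 13.6 and 16.56 in Alb-R3 oil and 156.8, 1704 and 1780 in Alb-R3 CCl4. Within each CCl4 group 1 library was low, the same libraries as for Ccna2 and Ccnb1. Ccnb2 rose by 5.92 ± 0.89 (limma adjusted p = 0.0012) and 6.14 ± 0.89 (limma adjusted p = 0.000505). Without Alb-Cre CCl4 replicate 2 the Alb-Cre folds of Ccnb1 and Ccnb2 were 7.59 and 6.79. Without Alb-R3 CCl4 replicate 1 the Alb-R3 folds of Ccna2, Ccnb1 and Ccnb2 were 7.75, 9.27 and 7.29, without Alb-R3 CCl4 replicate 3 that of Ccnb2 was 5.54, and without Alb-R3 oil replicate 1 that of Ccna2 was 6.50. All of these passed the test.

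Cyclin F, the ubiquitin ligase subunit, was already among the 3 most abundant of the 9 per gene length after oil and passed the test in Alb-R3 with the smallest fold of the cyclins called there. Ccnf (chromosome 17, 24222198 to 24251484, minus strand) had 507.1, 818.6 and 287.6 in Alb-Cre oil and 859.8, 723.3 and 802.9 in Alb-Cre CCl4, where oil replicate 2 lay above CCl4 replicate 2. It had 387.4, 459.0 and 436.4 in Alb-R3 oil and 624.2, 950.5 and 859.6 in Alb-R3 CCl4, with no overlap. The log2 difference was 0.69 ± 0.29 in Alb-Cre (limma adjusted p = 0.245) and 0.90 ± 0.29 in Alb-R3 (limma adjusted p = 0.0485). With Alb-Cre oil replicate 2 left out the Alb-Cre difference was 1.05 and passed (limma adjusted p = 0.0373). The Alb-R3 call lay close to the threshold. It was lost on leaving out any 1 of 9 libraries, with adjusted p between 0.0601 and 0.142, and kept without replicate 2 or 3 of Alb-Cre oil or replicate 1 of Alb-R3 CCl4.

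**Figure D3:**
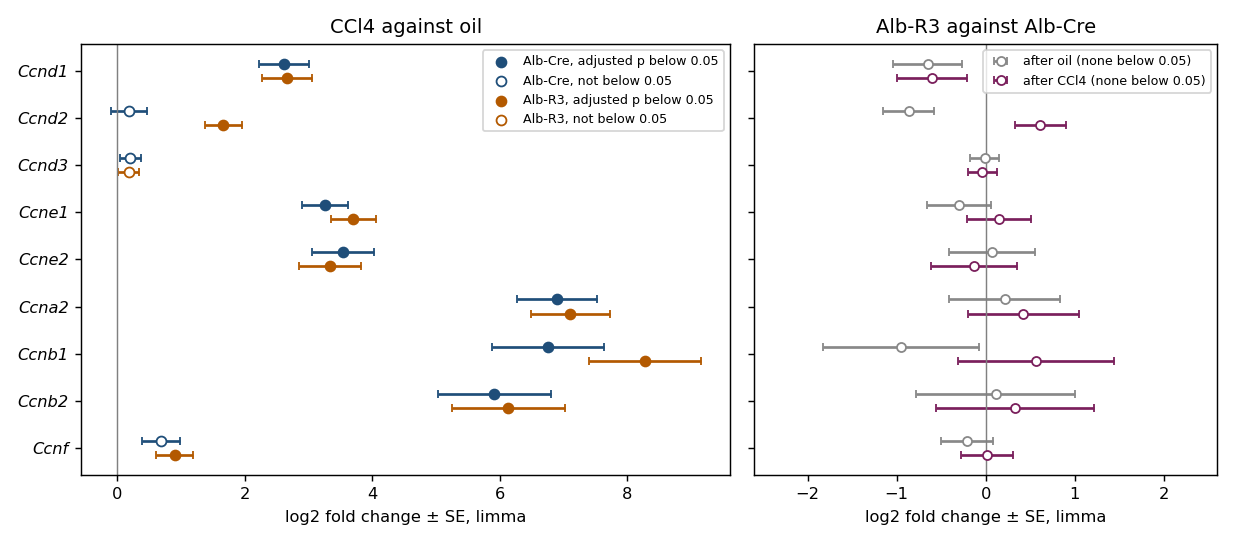
Log2 fold changes with limma standard errors (n = 3 libraries per group) for CCl4 against oil in each genotype (left) and for the 2 genotypes within each treatment, Alb-R3 minus Alb-Cre (right). Filled points passed the adjusted threshold. The folds rise from 2.61 for Ccnd1 to 8.28 for Ccnb1 among cyclins called in both genotypes, and all points on the right are open.

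FPKM, which divides by a length for each gene, allows the levels of the cyclins to be compared with each other. This length, called gene length here, is not the genomic span given above. Its values are not stated, and the order of the genes and their shares depend on them. After oil the order was led by Ccnd3, at 20.7 ± 1.48 FPKM (SD, n = 3) in Alb-Cre and 19.7 ± 1.25 in Alb-R3, and its values overlapped no other cyclin. Ccnd1 (12.8 ± 3.14 and 8.34 ± 3.65) and Ccnf (11.6 ± 5.89 and 8.84 ± 0.771) came next and overlapped each other. Ccnd2 (1.53 ± 0.463 and 0.782 ± 0.145) and Ccne1 (0.916 ± 0.248 and 0.703 ± 0.156) formed the next pair, also overlapping. Ccnb2, Ccne2, Ccnb1 and Ccna2 were last, each with a mean below 0.21 FPKM and each overlapping its neighbour in the order.

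After CCl4 Ccnd1 was first, at 97.3 ± 42.4 FPKM in Alb-Cre and 58.6 ± 5.10 in Alb-R3. In Alb-Cre it stood clear of the next, Ccnd3 (28.2 ± 3.37), and in Alb-R3 its range overlapped that of Ccnb1 (35.5 ± 26.9). Ccnd3, Ccnb1, Ccnb2, Ccna2 and Ccnf lay between 16.7 and 35.5 FPKM on average with overlapping neighbours. Ccne1 followed at 11.1 ± 4.49 and 11.5 ± 2.44, overlapping the gene above it. Ccne2 and Ccnd2 were last in both genotypes, at 2.35 ± 0.556 and 1.999 ± 0.355 in Alb-Cre. In Alb-R3 they had 2.37 ± 1.47 and 3.00 ± 0.131, and in neither genotype could they be ordered beyond their spread.

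The make-up of the cyclin pool shifted accordingly. The D-type cyclins held 61.4% to 82.6% of the summed FPKM of the 9 genes in the oil libraries and 33.9% to 73.3% in the CCl4 libraries. Cyclins A2, B1 and B2 together held 0.395% to 1.48% after oil and 8.44% to 50.8% after CCl4. Within the D-type sum the share of Ccnd1 was 16.3% to 40.4% after oil and 63.7% to 82.3% after CCl4, without overlap, while Ccnd2 held 1.22% to 5.62% over all 12 libraries. The sum of all 9 was 34.98 to 51.8 FPKM after oil and 127 to 274 after CCl4.

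**Figure D4:**
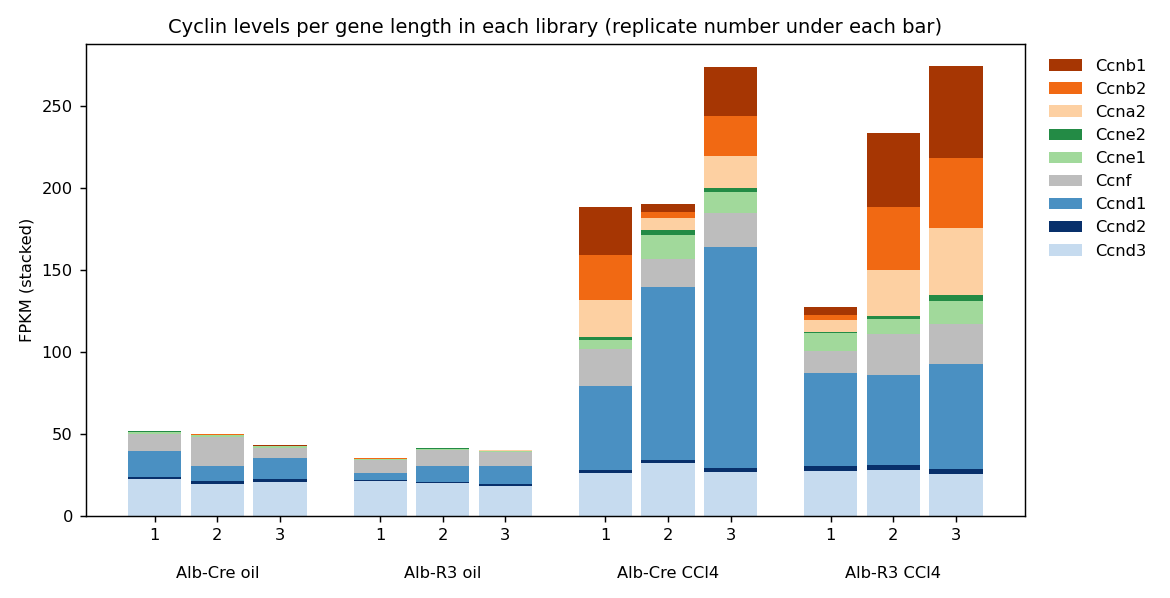
FPKM of the 9 cyclins stacked in each library, with the replicate number under each bar. The sum is 34.98 to 51.8 in the oil libraries and 127 to 274 in the CCl4 libraries, and the orange and brown part (Ccna2, Ccnb2 and Ccnb1) is small in Alb-Cre CCl4 replicate 2 and Alb-R3 CCl4 replicate 1.

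Between genotypes 0 of the 9 cyclins passed the test after oil, 0 after CCl4 and 0 in the interaction (limma), against 0.207%, 0.173% and 0% of all tested genes. At an unadjusted limma p under 0.05 there were 1, 0 and 1 of 9, Ccnd2 in both cases, and 1314, 1573 and 1516 of 20244 genes. None of the alternative fits called a cyclin in these comparisons, with a smallest adjusted p of 0.0901 for Ccnd1 after oil under limma's library weights. These comparisons share the oil and CCl4 libraries with the ones above and are not independent of them.

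For Ccnd2 the oil libraries gave a log2 difference (Alb-R3 minus Alb-Cre) of -0.87 ± 0.29 (limma adjusted p = 0.428), and no Alb-R3 value reached the lowest Alb-Cre value. After CCl4 the order turned, with 3 Alb-R3 values above the 3 Alb-Cre values and a difference of 0.61 ± 0.29 (limma adjusted p = 0.65). Neither difference passed. Ccnd1 had a mean of 902 ± 230 in Alb-Cre oil and 615 ± 289 in Alb-R3 oil (SD, n = 3), a log2 difference of -0.65 with a 95% interval of -1.50 to 0.19. After CCl4 it had 5836 ± 2512 and 3560 ± 435, a difference of -0.61 with an interval of -1.45 to 0.24, and Alb-Cre CCl4 replicate 1 lay below all Alb-R3 values.

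For the other cyclins the intervals show how precisely these 12 libraries placed each genotype difference. They hold for each gene alone and are not adjusted for the number of genes tested, so they do not bound what the adjusted test could miss. After CCl4 the difference for Ccnd3 was -0.04 (95% interval -0.39 to 0.32) and for Ccnf 0.01 (-0.62 to 0.64). For Ccne1 it was 0.15 (-0.63 to 0.92) and for Ccne2 -0.13 (-1.18 to 0.91). The intervals were widest for Ccna2 (0.42, -0.92 to 1.77), Ccnb1 (0.56, -1.33 to 2.45) and Ccnb2 (0.33, -1.59 to 2.25), the cyclins whose CCl4 libraries differed most among themselves.

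Within the CCl4 groups the libraries differed in which cyclins were high. Alb-Cre CCl4 replicate 2 had the highest Ccne1, Ccne2 and Ccnd3 of its group, and the lowest Ccnd2, Ccna2, Ccnb1, Ccnb2 and Ccnf. Alb-R3 CCl4 replicate 1 had the highest Ccnd1, Ccnd2, Ccnd3 and Ccne1 of its group, and the lowest Ccne2, Ccna2, Ccnb1, Ccnb2 and Ccnf. On the log2 scale the deviation of Ccnb1 from its group mean was -1.66 in the first of these libraries and -1.99 in the second, while that of Ccne1 was 0.60 and 0.18. The FPKM ratio of Ccnb1 to Ccne1 was 4.85, 0.322 and 2.38 in Alb-Cre CCl4 and 0.455, 4.89 and 3.95 in Alb-R3 CCl4. After oil the same ratio was 0.0240 to 0.212, below all CCl4 libraries.

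The ratio of Ccna2 to Ccne1 showed the same 2 low libraries, at 0.511 in Alb-Cre CCl4 replicate 2 and 0.634 in Alb-R3 CCl4 replicate 1 against 1.61 to 3.71 in the other 4. The proliferation marker Mki67 was lowest in them too, at 1088 against 2157 and 2040 in Alb-Cre CCl4 and 775.8 against 2307 and 2701 in Alb-R3 CCl4, and so was Cdk1 (725.2 and 551.9). Alb-R3 CCl4 replicate 1 is also the library with 32.3% mitochondrial counts, and Alb-Cre CCl4 replicate 2 had 6.25%. The sums of immune cell markers were also highest in Alb-R3 CCl4 replicate 1, though not every marker was. There the summed normalized count of 10 neutrophil and monocyte markers was 1580, against 32.5 to 101.8 in the other 11 libraries, and the neutrophil granule gene Camp was listed at 0 in every group. The largest members of that sum were S100a9 (504.5), S100a8 (376.6) and Csf3r (316.1), while Ly6g stood at 0 there. The sum of 12 T, NK and B lymphocyte markers was 314.0 there against 51.6 to 106.6 elsewhere, and the Kupffer cell sum was 16723 there against 1024 to 3837. Ptprc alone held 256.9 of that lymphocyte sum of 314.0. In the same library Cd79b stood at 21.66, Cd4 at 5.158, and Cd3e, Cd8a and Nkg7 at 0, so the sum does not show a rise of the lymphocyte list as a whole. In Alb-Cre CCl4 replicate 2 the 3 sums were 85.2, 51.6 and 2113, of which the lymphocyte sum was the lowest of the 12 libraries. With CCl4 in Alb-R3, 2 of 7 tested neutrophil and monocyte markers and 2 of 11 lymphocyte markers rose, against 10.9% of all genes. The parts of RNA quality and of other cells in the differences between libraries were not tested.

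**Figure D5:**
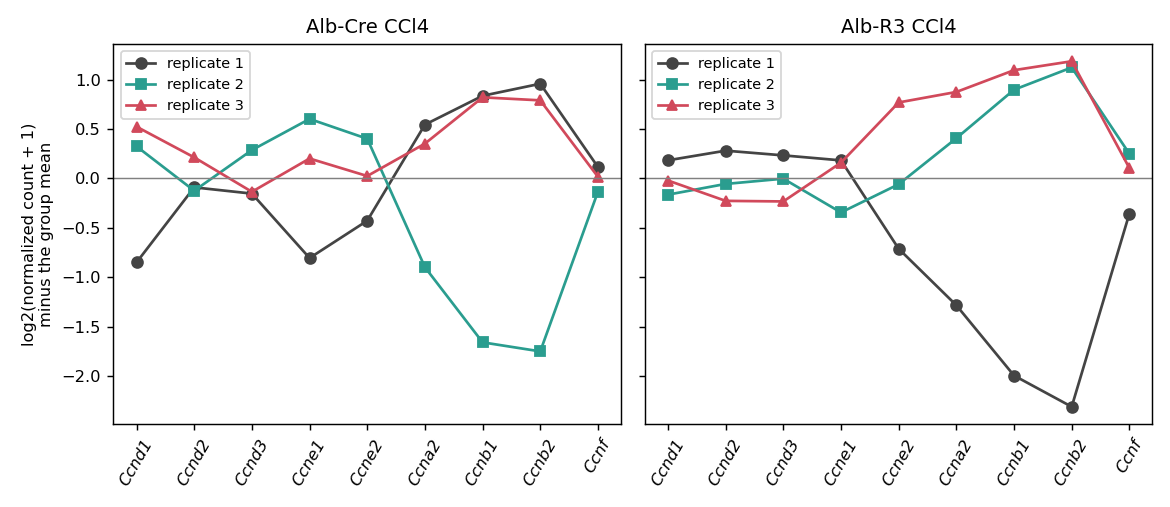
Deviation of log2(normalized count + 1) from the group mean for each cyclin in the 3 Alb-Cre CCl4 (left) and 3 Alb-R3 CCl4 libraries (right), where lines only join the points of a library. Replicate 2 on the left and replicate 1 on the right fall to between -0.90 and -2.31 for Ccna2, Ccnb1 and Ccnb2 while their Ccnd3 and Ccne1 lie above 0.

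Among the kinase partners the mitotic kinase Cdk1 stood out by its fold. Of 9 genes for CDKs and their activation, 2 rose in each genotype and none fell (median log2 0.41 in Alb-Cre and 0.40 in Alb-R3). Among all genes tested 3.46% rose in Alb-Cre and 10.9% in Alb-R3, so in Alb-R3 a count of 2 in 9 is not far from the background. Cdk1, the mitotic kinase bound by cyclins A2 and B, had 27.3, 15.56 and 25.06 in Alb-Cre oil and 1182, 725.2 and 1240 in Alb-Cre CCl4. In Alb-R3 it had 9.848, 6.8 and 20.1 after oil and 551.9, 1633 and 1749 after CCl4, and it rose by 5.47 ± 0.46 in Alb-Cre and 6.59 ± 0.46 in Alb-R3. Cks1b, a small subunit of CDK complexes, rose by 1.41 ± 0.24 and 1.99 ± 0.24. The partners of the D- and E-type cyclins did not pass in either genotype (limma adjusted p between 0.10 and 0.596). Their log2 differences, with 95% intervals, were 0.37 (0.05 to 0.69) and 0.38 (0.06 to 0.70) for Cdk4. For Cdk6 they were 0.41 (0.09 to 0.72) and 0.13 (-0.18 to 0.44), and for Cdk2 0.53 (0.16 to 0.90) and 0.40 (0.03 to 0.77). At an unadjusted limma p under 0.05 there were 5 of the 9 genes in Alb-Cre and 6 in Alb-R3, against 3458 and 6227 of 20244. Cdk4 and Cdk2 were abundant after oil, at 21.3 ± 0.993 and 4.55 ± 0.180 FPKM in Alb-Cre, against 0.525 ± 0.139 for Cdk1.

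Of the 5 genes that place or remove inhibitory phosphates on CDKs, 4 rose in Alb-Cre and 5 in Alb-R3 (median 3.56 and 3.94), where 3.46% and 10.9% of all genes tested rose. The phosphatase gene Cdc25c rose by 5.10 ± 0.81 and 6.56 ± 0.81, and the opposing kinase gene Pkmyt1 by 3.67 ± 0.41 and 3.94 ± 0.41. The member that did not pass in Alb-Cre was Wee1, the other inhibitory kinase, named after its values were seen (1.32 ± 0.49, limma adjusted p = 0.178). In Alb-R3 it rose by 1.61 ± 0.49 (limma adjusted p = 0.0387).

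Among 28 tested genes of cyclin destruction 6 rose and 1 fell in Alb-Cre, and 7 rose and 1 fell in Alb-R3, with medians of 0.09 and 0.22. The 7 of 28 called in Alb-Cre stand beside 4.45% of all genes called in either direction, and the 8 of 28 in Alb-R3 beside 17.8%. Those that rose most were Cdc20, the mitotic activator of the anaphase-promoting complex (7.71 ± 0.78 and 7.61 ± 0.78), and Ube2c, its ubiquitin-conjugating enzyme (6.72 ± 0.78 and 7.90 ± 0.78). Fbxo31, the F-box gene of an SCF ligase that acts on cyclin D1, was the member that fell, with log2 changes of -1.14 ± 0.17 (limma adjusted p = 0.00102) and -1.24 ± 0.17 (limma adjusted p = 0.000293). In Alb-Cre 4 rose when replicate 2 of the oil group, or replicate 2 or 3 of the CCl4 group, was left out.

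Of 7 genes for proteins that cyclin F is known to mark for destruction, 6 rose in each genotype (median 3.70 and 3.46), beside the same 3.46% and 10.9% of all genes. Cdc6, a loading factor of the replicative helicase, rose by 7.23 ± 0.59 and 6.27 ± 0.59, and Nusap1, a spindle protein, by 5.83 ± 0.64 and 6.46 ± 0.64. Ccp110, a centriole protein named after its values were seen, was the exception (0.71 and 0.31, limma adjusted p = 0.148 and 0.425). Ccnf itself had log2 differences of 0.69 and 0.90.

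The 17 other cyclin genes, which include transcriptional and atypical cyclins, were fitted in the same way. Of the 15 tested, 0 passed in Alb-Cre (limma, with 2 at an unadjusted p under 0.05), and in Alb-R3 2 rose and 1 fell, with medians of -0.04 and -0.05. The 3 of 15 called in Alb-R3 are close to the 17.8% called over all genes, so the count says nothing about these genes as a set. Ccnjl was at the level of a few reads: it stood at 0, 0 and 1.183 in Alb-R3 oil and at 5.158, 3.662 and 5.61 in Alb-R3 CCl4, and Alb-Cre oil replicate 3 had 4.773, within that range. Its fitted log2 difference in Alb-R3 was 2.15 ± 0.62. Ccnyl1 rose by 0.76 ± 0.21 in Alb-R3, and Ccni changed by -0.69 ± 0.19 (limma adjusted p = 0.0219). None of the 3 was called without Alb-R3 oil replicate 1 or Alb-R3 oil replicate 2. With 1 of the Alb-R3 CCl4 libraries left out the counts were 2 rising and 0 falling without replicate 1, and 1 and 1 without replicate 2 or replicate 3. In the genotype comparisons and the interaction 0 members of these 5 lists passed (limma), and 0 to 1 of each list did so at an unadjusted p under 0.05.

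The genes whose pattern over the 12 samples was most like each cyclin were found by Pearson's r of log2 values among 13348 genes. All such correlations are shaped by the step from oil to CCl4 and by libraries the genes share. For Ccnd1 they were the replication genes Fen1 (r = 0.960) and Mcm3 (0.959) and the DNA-dependent protein kinase gene Prkdc (0.957). Ccne1 was closest to the CDK phosphatase gene Cdc25a (0.984), the chromatin assembly gene Chaf1a (0.984) and Timeless (0.983), a replication fork gene. Ccne2 was closest to Rrm1, a ribonucleotide reductase subunit (0.994), Slfn9 (0.990) and Eftud2 (0.988).

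Ccna2 was closest to the mitotic or centriole kinase genes Plk1 (0.995) and Plk4 (0.994) and the kinesin gene Kif2c (0.994). Ccnb1 was closest to Trim59 (0.994), to Cdk1, its own kinase partner (0.991), and to the kinetochore gene Knstrn (0.991). Ccnb2 was closest to Cip2a (0.996), the phosphatase gene Cdkn3 (0.992) and Cdca3 (0.992). Ccnd2 was closest to the cytokine gene Il1a (0.977), the fatty acid binding protein gene Fabp4 (0.971) and Rasip1, a gene of endothelial vessel formation (0.955). Ccnd3 was closest to Pdia5 (0.947), Palm (0.941) and Tbc1d2 (0.925), and Ccnf to Heatr5a (0.957), Bzw1 (0.954) and Acbd3 (0.951).

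Some values may hold reads of other loci. Ccnb1 has a processed copy, Ccnb1-ps, on chromosome 7 (42105899 to 42107185) that is 99.2% identical over 1287 bases. Ccnd3-ps on chromosome 4 is 96.6% identical over 417 bases and Ccnb2-ps is 84.6% identical over 402 bases. These copies are not among the 35709 genes, so reads from them could not be told apart, and the Ccnb1 value is uncertain to that extent. The sources used here do not give whether the counting used strand, and 5 cyclins overlap an opposite-strand gene. Ccnd1 overlaps LTO1, Ccnd3 Bysl, Ccne2 Ints8 and Ccna2 Exosc9. Ccnd2 overlaps the antisense genes Gm43126, listed at 0 in all 12 libraries, and 9330179D12Rik, listed at 0 in 11 libraries and at 1.094 in Alb-R3 oil replicate 1. Exosc9 stood at 217.2 to 327.6 in the oil libraries, where Ccna2 stood at 2.189 to 11.83, and Ints8 at 288.8 to 479.3, where Ccne2 stood at 3.58 to 12.64.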

How the data were processed

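RNA-seq libraries of isolated hepatocytes from 12 samples were analysed in 4 groups of 3, taken from the labels. The authors deposited, per the file headers, a normalized count (a signal, not whole reads) and an FPKM value for each of 35709 genes in each sample. Kallisto 0.44.0, edgeR and the build GRCm38.p6 stand in the submitters' processing notes, which give no step for any of them. Per library, 69.8% to 74.6% of low values were whole multiples of the smallest step, within 0.02, so no count model was run.

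A linear model with 1 coefficient per group and 8 residual degrees of freedom was fitted to log2(normalized count + 1) by limma 3.58.1 (R 4.3.3), using its mean-variance trend. Testing took genes that reached 1 in 3 or more samples, in 5 comparisons, with Benjamini-Hochberg adjustment over the 20244 genes. The log2(value + 1) scale understates the change of low genes. Intervals for fold changes are limma's 95% intervals. The procedure was tested on simulated data.

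Members and gene lists were chosen with earlier results of these data known. The text names the 9 cyclins, the kinases Cdk1, Cdk2, Cdk4 and Cdk6, up to 2 called members of largest fold per list and direction, and the 3 genes with the most similar pattern per cyclin where the higher group mean is 5 or more and the gene is no predicted model. Some genes the rule allows are not printed. Gene positions are 1-based. Pseudogene identity was measured with blastn 2.17.0. Alternatives were 10 other settings and leaving out each of the 12 libraries.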

Additional observations from a re-analysis of the deposited data

How the results depend on the processing

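The calls of Ccnd1, Ccne1, Ccne2, Ccna2, Ccnb1 and Ccnb2 after CCl4 in both genotypes, and of Ccnd2 in Alb-R3, kept their direction and their side of the threshold under all 22 alternatives. Leaving out 1 library gave 6 to 7 called cyclins in Alb-Cre, 7 to 8 in Alb-R3 and 0 in the genotype comparisons and the interaction. Besides single libraries, the Ccnf call in Alb-R3 was lost with a pseudocount of 0.1 (limma adjusted p = 0.0526) or 5 (0.052), without a filter on low values (0.0736), without the trend (0.0998) and with a replicate block (0.90, adjusted p = 0.0544, 7 of 9 cyclins called). The cause was not tested. With limma's array weights Ccnf passed in Alb-Cre (0.61, adjusted p = 0.0491). Correlations of same-numbered samples ran from -0.19 to 0.20, so the numbers were not taken to pair samples, and the replicate block changed no other call of a cyclin.

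The number of all genes called moved more: with array weights it was 2703 for CCl4 in Alb-Cre, 663 between genotypes after oil, 103 between genotypes after CCl4 and 46 in the interaction. With only the samples compared it was 2337 for CCl4 in Alb-R3, 68 after oil and 13 after CCl4. It was 54 after CCl4 on the FPKM columns and 6 in the interaction without the trend. Without 1 library it was 525 to 1431, 2137 to 3782, 28 to 103, 20 to 38 and 0 to 3 in the order of the comparisons. The counts of 1431 and 103 came without Alb-R3 CCl4 replicate 1.

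Directions that turned all belong to differences that passed no test. Quantile normalization gave -0.12 for Ccnd2 in Alb-Cre, and 0.0038 for Ccnd3 between genotypes after CCl4 and 0.035 in its interaction. Array weights gave 0.017 for the Ccnd3 interaction, -0.29, 0.092 and 0.38 for Ccne2 after oil, after CCl4 and in the interaction, and -0.39 for Ccnb2 after oil. The FPKM columns gave 0.012 for the Ccnd3 interaction, -0.025 for Ccne2 after oil and -0.0084 for Ccnf after CCl4. The cause was not tested.

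Leaving out 1 library moved the Ccnd2 difference in Alb-Cre between -0.040 and 0.41. Between genotypes after oil the ranges were -0.069 to 0.047 for Ccnd3, -0.43 to 0.35 for Ccne2, -0.18 to 0.82 for Ccna2, -0.22 to 0.64 for Ccnb2 and -0.59 to 0.16 for Ccnf. After CCl4 they were -0.15 to 0.11 for Ccnd3, -0.26 to 0.45 for Ccne1, -0.52 to 0.22 for Ccne2, -0.028 to 1.06 for Ccna2, -0.27 to 1.56 for Ccnb1, -0.54 to 1.49 for Ccnb2 and -0.11 to 0.19 for Ccnf. In the interaction they were -0.41 to 0.35 for Ccnd1, -0.14 to 0.12 for Ccnd3, -0.59 to 0.30 for Ccne2, -0.40 to 0.85 for Ccna2, -0.66 to 1.37 for Ccnb2 and -0.15 to 0.60 for Ccnf. Depth limits Ccna2, Ccnb1 and Ccnb2 after oil, where values near that of 1 read make the folds depend on the pseudocount. With a pseudocount of 5 the folds of Ccna2 were 6.19 in Alb-Cre and 6.43 in Alb-R3, and that of Ccnb1 in Alb-Cre was 6.07. On the FPKM columns Ccna2 in Alb-Cre gave 6.29 and Ccnb1 in Alb-R3 7.27.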
